A study of Homo sapiens with 12 samples.

Results

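The nuclear-encoded subunits of the mitochondrial respiratory chain were followed across 12 RNA-seq libraries of HEYA8 cells, an established human ovarian cancer cell line. Members were the rows of the deposited count table whose gene symbols carry the subunit names of complex I (NDUFA, NDUFB, NDUFC, NDUFS and NDUFV followed by a number, and NDUFAB1), complex II (SDHA to SDHD), complex III (symbols that begin with UQCR) and complex IV (COX4 to COX8). The rule reads gene names and no measured value. The rule matched 78 of 56269 rows, of which 67 were subunit genes and 11 were pseudogene rows of the UQCR family. A filter on low counts was passed by 60 of the 67 subunit genes and by 1 pseudogene row, UQCRFS1P1.

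In the paper, the betaglycan constructs described below were placed in a lentiviral vector with a dTomato marker, and infected cells were sorted for that marker. It does not name the backbone of the control vector. The cells of all 4 groups were collected in RPMI-1640 with 10% FBS, a state that the labels call resting. One group carried the control vector. ∆GAG-BG cells carried betaglycan (the TGF-β co-receptor encoded by TGFBR3) with both glycosaminoglycan attachment serines replaced by alanine. S534A and S545A cells each carried only the single change of that name. The paper names S534A the chondroitin sulfate form, although its enzyme digests found both chondroitin sulfate and heparan sulfate chains on it. It names S545A the heparan sulfate form, which lost its chains with heparinase III. Each group had 3 libraries, and total counts ran from 16410001 to 29504297. The libraries are not stated to come from separate cultures, so the p-values measure only the spread between libraries. TGFBR3, the transgene, went against the labels in libraries 2 and 3 of 2 groups: it stood at 15.9, 259 and 259 CPM (counts scaled to a common library total, with TMM factors) in libraries 1 to 3 labelled control vector and at 260, 20.3 and 21.4 CPM in those labelled ∆GAG-BG, against 413 to 476 in S534A and 520 to 574 in S545A. All group names below are therefore those of the labels. S545A library 3 is titled S545S-3, and its group was taken from its genotype label, S545A. Libraries 2 and 3 were also close to each other in the control vector, ∆GAG-BG and S545A groups, where a chi-square over all genes divided by its degrees of freedom was 1.37 to 1.89, against 15.6 to 69.1 for the other pairs within a group. Over all genes these pairs differed by more than sampling noise, and they were counted as separate libraries. In S545A the excess was smaller over the members alone. Such an excess does not show that libraries 2 and 3 are independent replicates. If they are not, the SDs, standard errors, intervals and p-values below rest on fewer than 3 independent libraries in these groups, and the spread is understated. The ovarian lineage factor PAX8 stood at 193 to 295 CPM and the keratin KRT8 at 688 to 1007 CPM, whereas the adhesion gene CDH1 and MUC16, the gene of the tumor marker CA125, had 0 counts in each library. Of 10 ovarian and epithelial markers, 7 passed the filter on low counts. Of 10 markers of other cell types, 7 stayed between 0 and 6 counts and 3 passed the filter. Among these 3, the endothelial gene CDH5 stood at 168 to 431 CPM.

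The respiratory chain sits in the inner mitochondrial membrane. Complex I takes electrons from NADH and complex II takes them from succinate, complex III passes them from ubiquinol to cytochrome c, and complex IV hands them to oxygen. Complexes I, III and IV pump protons, and ATP synthase uses the gradient. Complexes I, III and IV are built from subunits of 2 genomes, so nuclear genes must be matched by mitochondrial ones, while complex II is encoded in the nucleus alone. The 37 rows of the mitochondrial genome, which include the catalytic core of complex IV, held 0 counts over all libraries, so the mitochondrial share of these complexes was not measurable here.

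Promoters are shown first, because regulators with known binding motifs are described for many of these genes: nuclear respiratory factor 1 (NRF1), the GA-binding protein (GABP) and YY1. RefSeq promoter windows (GRCh38.p14, from 250 bases before to 50 bases after the start) were matched for 55 of the 67 subunit genes, and each was searched on both strands for 3 motifs that do not contain each other: GCGCA, any base and GCGC for NRF1, CCGGAAGT for GABP and AAGATGGC for YY1. The NRF1 letters were found in 13 of the 55 windows (23.6%), against 6.28% of all 27305 windows. The GABP letters were found in 8 (14.5%, against 4.44%), and the YY1 letters in 8 (14.5%, against 3.03%). At least 1 of the 3 was present in 24 windows (43.6%, against 12.5%). A match describes the letters of the window and is not a binding site. Windows of 30 bases around matches, in COX5B and in genes described further on, are given 5′ to 3′ on the strand of the gene, with the matched letters in capitals. Offsets are the distance of the first matched base from the start, negative upstream. The NRF1 letters lay at -47 in UQCRC1 (chr3:48609674-48609703, minus strand), at -31 in UQCRFS1 (chr19:29213163-29213192, minus strand), at -19, the last of 4 matches, in SDHA (chr5:218291-218320, plus strand) and at -98 in NDUFA11 (chr19:5903869-5903898, minus strand).
UQCRC1: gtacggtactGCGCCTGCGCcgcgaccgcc
UQCRFS1: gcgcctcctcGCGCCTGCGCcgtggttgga
SDHA: ccggtgtggtGCGCAGGCGCagtctgcgca
NDUFA11: ccggtccccgGCGCGTGCGCgcgatccatg

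The GABP letters lay at -47 in UQCRH (chr1:46303640-46303669, plus strand), at -37, the first of 2 matches, in COX5B (chr2:97646014-97646043, plus strand), at -10 in NDUFA13 (chr19:19516204-19516233, plus strand) and at -158 in NDUFS1 (chr2:206159584-206159613, minus strand).
UQCRH: gagtgtgccgcACTTCCGGccagatcgccg
COX5B: gaagcccgcccCCGGAAGTccctcctgtct
NDUFA13: tccgcccgggaCCGGAAGTgtgggatactg
NDUFS1: aggctggggccACTTCCGGcggaactgcgg

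The YY1 letters were shown for their position. All 8 matches in subunit genes lay from 10 to 25 bases after the start and read forward. Of the 865 matches in all windows, 44.6% lay from 5 to 30 bases after it (limits chosen after the positions were seen) and 65.9% read forward. They are given for SDHB (offset 10, chr1:17054004-17054033, minus strand), NDUFA6 (offset 25, chr22:42090729-42090758, minus strand), NDUFS7 (offset 17, chr19:1383913-1383942, plus strand) and NDUFA7 (offset 14, chr19:8321343-8321372, minus strand).
SDHB: cgtcaggagccAAGATGGCggcggtggtcg
NDUFA6: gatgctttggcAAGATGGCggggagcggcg
NDUFS7: aggccgaggccAAGATGGCggtgctgtcag
NDUFA7: atcgcggacggAAGATGGCgtccgccaccc

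Levels were compared between genes per kilobase of annotated exon. The median over the 60 subunit genes was 26.1 CPM per kilobase. Ubiquitous complex IV subunits had the highest median (47.4 CPM per kilobase, 11 genes), followed by complex III (30.6, 9 genes) and complex II (25.2, 4 genes). Within complex I, the distal membrane-arm accessory subunits had a median of 25.3 CPM per kilobase (11 genes), the matrix-arm accessory subunits 19.3 (9 genes), the matrix-arm core subunits that carry the electron path 13.3 (7 genes) and the proximal membrane-arm accessory subunits 12.5 (9 genes). The 3 highest genes were NDUFS5, an accessory subunit of the proximal membrane arm, at 127 CPM per kilobase, and the complex IV subunits COX7C at 113.5 and COX8A at 113.1. The order depends on the length used, since the table sums all annotated exons. With the principal transcript alone, COX4I1 (260 CPM per kilobase), UQCRH (225) and NDUFB9 (178) came first, and the complex IV median stayed the highest at 113. The order below it changed: complex II (65.4) and the distal membrane-arm subunits of complex I (58.9) stood above complex III (46.0). The matrix-arm core subunits (45.8) then stood above the matrix-arm and proximal membrane-arm accessory subunits (24.1 each).

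**Figure D1:**
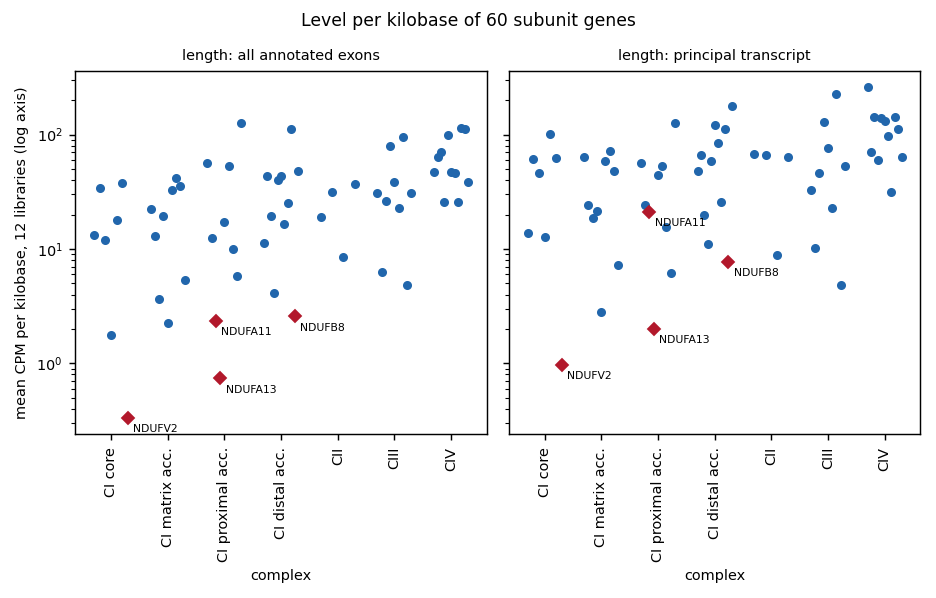
Mean CPM per kilobase over 12 libraries (log axis) for each of 60 subunit genes by complex (CI to CIV, acc. accessory), with the length taken from all annotated exons (left) or from the principal transcript (right). Red diamonds mark genes whose principal transcript is overlapped by at least 40% by exons of another gene on the same strand. NDUFV2 and NDUFA13 are the lowest points in both panels, at 0.335 and 0.738 CPM per kilobase on the left.

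The lowest levels belonged to subunits that complex I needs in every tissue. NDUFV2, a core subunit with an iron-sulfur cluster, had 14 to 28 counts per library and 0.335 CPM per kilobase, and NDUFA13, also called GRIM-19, had 35 to 90 counts and 0.738 CPM per kilobase. NDUFS7, a core subunit near the ubiquinone site, was the third lowest by summed exon length at 1.76 CPM per kilobase, but by the principal transcript it stood at 12.8 CPM per kilobase and the accessory subunit NDUFA9 was the third lowest at 2.81. NDUFA7 did not pass the filter, at 1 to 13 counts. These rows share exons with other rows of the table. Exons of another gene on the same strand covered 82.9% of the principal transcript of NDUFV2, 75.9% of that of NDUFA7, 71.7% of that of NDUFB8, 66.98% of that of NDUFA11 and 44.1% of that of NDUFA13. The same-strand partner of NDUFV2, RP11-21J18.1, itself held 0 counts in each library. For NDUFS7 no exon was shared on the same strand, and 49.1% of its exon bases lay opposite exons of other rows. In all, 31 of the 67 subunit genes overlapped another row on either strand and 16 on the same strand. How reads in shared exons were assigned is not stated, and the part of the overlap in these low values was not tested.

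Isoforms of complex IV were nearly all of the ubiquitous kind. COX4I1, the common form of the regulatory subunit 4, stood at 201 to 256 CPM, whereas COX4I2, the form of lung and hypoxic cells, had at most 1 count in a library. COX6A1 stood at 30.7 to 41.3 CPM, and its heart and muscle form COX6A2 had 0 counts in each library. COX6B1 stood at 81.7 to 119 CPM and the testis form COX6B2 at 0 to 2 counts. COX7A2 stood at 76.1 to 107 CPM and its muscle form COX7A1 at 2 to 9 counts. COX7B stood at 67.3 to 96.2 CPM and COX8A at 50.7 to 64.1 CPM, while COX7B2 and COX8C had 0 counts in each library. A count of 0 allows up to 0.1001 to 0.182 CPM (3 counts), for counting error only. In complex III, the hinge gene UQCRH stood at 115 to 165 CPM and its near-identical retrocopy UQCRHL at 8.18 to 13.97 CPM, and reads of this pair may be split between them. The table holds 116 pseudogene rows named after subunit genes, of which 61 had 0 counts in each library. SDHAP1 held 11% as many counts as SDHA, and NDUFV2P1 held 426% as many as NDUFV2, that is 1103 against 259 counts in all. UQCRFS1P1 held 2.96% as many as UQCRFS1, and 6 of the 11 UQCR pseudogene rows were at 0 in each library.

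The summed level of the members spread more widely within each group than the 4 group means did. Members held 0.501%, 0.443% and 0.445% of all counts in control vector libraries 1 to 3, 0.415%, 0.469% and 0.459% in ∆GAG-BG, 0.485%, 0.534% and 0.434% in S534A, and 0.484%, 0.429% and 0.431% in S545A. The group means were 0.463% ± 0.0330 (SD, n = 3), 0.448% ± 0.0286, 0.484% ± 0.0499 and 0.448% ± 0.0310. The 4 groups overlapped, and the highest and lowest libraries of S534A spanned nearly the whole range. In bulk RNA, a share of this kind cannot tell fewer cells with a high level from less RNA per cell.

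In most libraries, most subunit genes deviated from their means in the same direction. Each gene's log2(CPM + 0.5) was set against its own mean over the 12 libraries. In control vector library 1, 53 of the 60 genes were above their mean, against 8 and 16 in libraries 2 and 3. In S534A library 2, 54 genes were above it with a median deviation of 0.21, and in S534A library 3 only 8 were, with a median of -0.08. In ∆GAG-BG library 1, 8 genes were above their mean (median -0.17), against 44 and 34 in libraries 2 and 3. In S545A library 1, 55 genes were above it, against 6 and 3 in libraries 2 and 3. Over all 16069 genes tested, between 48.1% and 52.1% were above their own mean in each library. The size of the deviation differed between groups of subunits. In S534A library 2 the medians ran from 0.11 in the core genes of complex I to 0.47 in its proximal arm, and in ∆GAG-BG library 1 from -0.25 in the distal arm to -0.02 in complex III. In control vector library 1 all 11 ubiquitous complex IV genes and all 11 distal-arm genes of complex I were above their means, and in ∆GAG-BG library 1 no complex IV, complex II or core complex I gene was, whereas 4 of 9 complex III genes were.

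**Figure D2:**
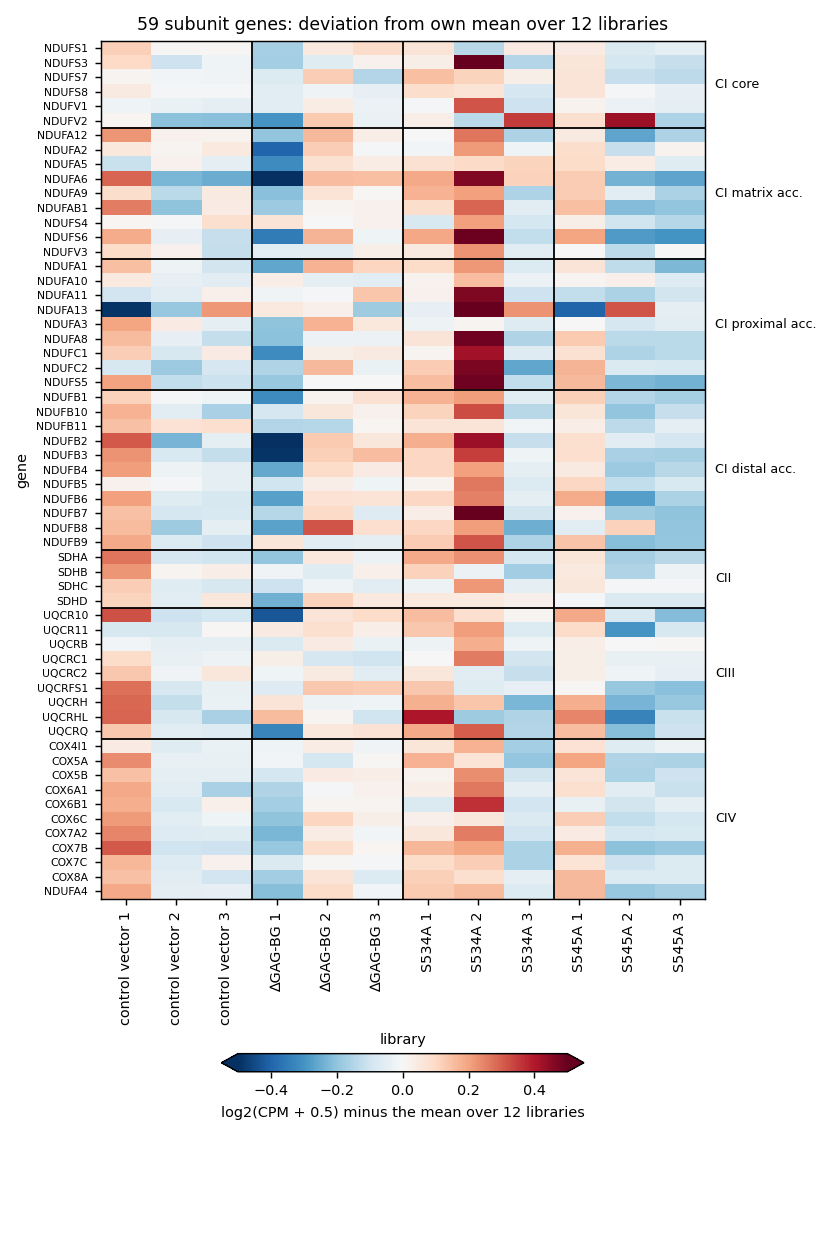
Deviation of 59 of the 60 subunit genes (rows, by complex, CI to CIV) from its own mean over 12 libraries (columns), in log2(CPM + 0.5), red above and blue below. Columns are mostly of one colour: red in control vector 1 (53 of 60 genes above their mean), S534A 1 and 2 (51 and 54) and S545A 1 (55), and blue in ∆GAG-BG 1 (8 of 60) and S545A 2 and 3 (6 and 3).

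Genes of other processes moved with these positions. The 18 genes of ATP synthase had medians of 0.16, -0.07 and -0.04 in the control vector libraries, -0.17, 0.05 and 0.04 in ∆GAG-BG, 0.11, 0.26 and -0.08 in S534A, and 0.11, -0.15 and -0.13 in S545A, close to those of the subunit genes. The median of 10 endoplasmic reticulum stress genes had the opposite sign to that of the subunit genes in every library except S534A library 3. Its values were -0.40, 0.58 and 0.55 in the control vector libraries, 2.12, -0.50 and -0.59 in ∆GAG-BG, -0.41, -1.18 and -0.02 in S534A, and -0.49, 0.20 and 0.24 in S545A. HSPA5, the chaperone BiP of that list, reached 11864 CPM in ∆GAG-BG library 1 and fell to 287 CPM in S534A library 2, the libraries with the lowest and the highest subunit share. The part of this difference between libraries in the subunit levels was not tested.

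**Figure D3:**
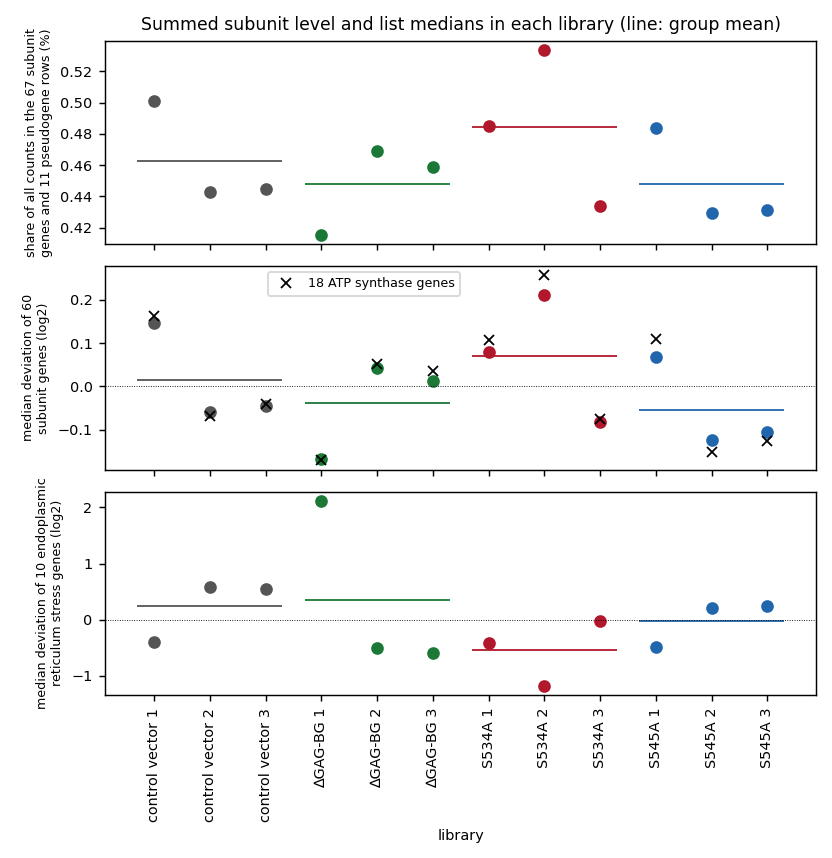
Share of all counts held by the 78 members (top, %), median deviation of the 60 subunit genes with that of the 18 ATP synthase genes as crosses (middle, log2), and median deviation of 10 endoplasmic reticulum stress genes (bottom, log2) in each of 12 libraries, with group means as lines. ∆GAG-BG 1 has the lowest member share (0.415%) and the highest stress median (2.12), and S534A 2 the highest share (0.534%) and the lowest stress median (-1.18).

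The core subunits of complex I differed in how far they varied. NDUFV1, which binds NADH and flavin, stood at 154, 152 and 151 CPM in the control vector libraries, 150, 160 and 153 in ∆GAG-BG, 156, 194 and 145 in S534A, and 158, 153 and 151 in S545A. Only S534A library 2 was far from the rest. NDUFS3, a core subunit with no redox centre of its own, ranged more widely (0.67 on the log2 scale), from 38.6 CPM in ∆GAG-BG library 1 to 61.7 in S534A library 2. NDUFV2 ranged over 0.72, at its 14 to 28 counts per library. NDUFS1, the largest iron-sulfur subunit, stood at 177, 164 and 164 CPM in the control vector libraries, 145, 169 and 174 in ∆GAG-BG, 171, 148 and 168 in S534A, and 168, 155 and 158 in S545A. The 2 smallest ranges belonged to NDUFS8 (0.17 on the log2 scale), which carries 2 iron-sulfur clusters, and to the accessory subunit NDUFA10 (0.22). NDUFS8 stood at 83.1, 80.1 and 80.0 CPM in the control vector libraries, 77.5, 79.3 and 78.3 in ∆GAG-BG, 85.5, 84.5 and 75.9 in S534A, and 84.2, 80.3 and 78.3 in S545A. Its groups overlapped except that the ∆GAG-BG libraries lay below the control vector libraries.

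The 3 largest ranges also belonged to complex I. NDUFB2, an accessory subunit of the distal membrane arm, had a range of 1.08 on the log2 scale. It stood at 22.5, 15.4 and 17.5 CPM in the control vector libraries, 11.4, 19.9 and 18.9 in ∆GAG-BG, 20.6, 24.6 and 16.7 in S534A, and 19.2, 17.4 and 17.1 in S545A, lowest in ∆GAG-BG library 1 and highest in S534A library 2. NDUFB2 shares 35.9% of its exon bases, and 83.4% of those of its principal transcript, with other rows, BRAF among them, mostly on the opposite strand. NDUFA13 had a range of 1.01, at 1.25 to 3.003 CPM. NDUFA6, an accessory subunit of the matrix arm, had a range of 0.97 and stood at 32.8, 22.8 and 22.4 CPM in the control vector libraries, 18.7, 29.9 and 29.8 in ∆GAG-BG, 30.6, 37.1 and 29.004 in S534A, and 29.3, 22.6 and 22.2 in S545A. For NDUFB2 and NDUFA6, the libraries of control vector, ∆GAG-BG and S534A each spanned a wider range than the 4 group means.

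Genes of complexes II to IV followed the library pattern above to differing degrees. SDHA, the flavin subunit of succinate dehydrogenase, stood at 193, 151 and 149 CPM in the control vector libraries, 139, 166 and 156 in ∆GAG-BG, 182, 187 and 150 in S534A, and 167, 143 and 145 in S545A. SDHB, its iron-sulfur subunit, stood at 89.5, 77.4 and 78.5 CPM, 75.8, 73.4 and 78.1, 83.2, 75.2 and 67.9, and 79.5, 69.1 and 75.3 in the same order, with ∆GAG-BG library 1 above library 2 and S534A library 2 below library 1. In complex III, the core protein gene UQCRC1 stood at 273, 250 and 252 CPM in the control vector libraries, 261, 242 and 239 in ∆GAG-BG, 256, 307 and 240 in S534A, and 261, 249 and 249 in S545A, so that ∆GAG-BG library 1 was the highest of its group. Among complex IV genes, COX5A, which binds a thyroid hormone metabolite, stood at 78.0 to 105 CPM and COX7A2 at 76.1 to 107 CPM. NDUFA4, first assigned to complex I and now placed in complex IV, stood at 155, 132 and 132 CPM in the control vector libraries, 117, 145 and 135 in ∆GAG-BG, 149, 152 and 130 in S534A, and 152, 119 and 121 in S545A. Groups overlapped for each of these genes.

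The 6 comparisons between groups asked whether the form of betaglycan labelled changed these genes. After adjustment over all 16069 genes (edgeR quasi-likelihood test, Benjamini-Hochberg), 0 subunit genes passed an adjusted p of 0.05 in any comparison, as did 0% of all genes, and 1 subunit gene had an unadjusted p under 0.05. This count of 0 was the same with DESeq2 and with limma on quantile-normalized values. The median standard error of a subunit gene's log2 fold change was 0.12, and the 95% interval lay within ±1 for 59 or 60 of the 60 genes and within ±0.5 for 44 to 56 of them, depending on the comparison. NDUFA13 and NDUFV2 had among the widest intervals. Because subunit genes deviated together in most libraries, the counts of genes higher or lower given below are not counts of independent observations. The share of all genes beside them is a description and no test.

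NDUFB11 was the gene below the threshold. It encodes a single-pass accessory subunit of the distal membrane arm, and lies at chrX:47142216-47145504 on the minus strand. NDUFB11 stood at 30.6, 29.03 and 29.3 CPM in the control vector libraries, 24.9, 24.9 and 27.8 in ∆GAG-BG, 28.9, 28.9 and 27.4 in S534A, and 28.3, 25.2 and 26.8 in S545A. The control vector libraries were above all libraries of the other groups. By the labels, NDUFB11 was lower in ∆GAG-BG than in control vector libraries, at a log2 fold change of -0.20 (SE 0.08, 95% interval -0.38 to -0.01, unadjusted p = 0.0377, edgeR adjusted p = 1), where 0.871% of all genes had an unadjusted p under 0.05. By TGFBR3 level the libraries of these 2 groups overlapped. NDUFB11 stood at 24.9, 29.03 and 29.3 CPM where TGFBR3 was at 259 to 260 CPM (∆GAG-BG 1, control vector 2 and 3). Where TGFBR3 was at 15.9 to 21.4 CPM (control vector 1, ∆GAG-BG 2 and 3), NDUFB11 stood at 30.6, 24.9 and 27.8 CPM. The exact permutation test gave p = 0.1, the smallest it can give with 3 libraries against 3. The unadjusted p was over 0.05 without any 1 of the control vector libraries, ∆GAG-BG library 1 or 2, or S545A library 3 (0.0539 to 0.104). NDUFB11 shares 44.9% of its exon bases with RBM10 on the opposite strand, which had 1060 to 1952 counts per library against 451 to 884. In S545A against control vector, its log2 fold change was -0.15 (SE 0.08, unadjusted p = 0.102).

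**Figure D4:**
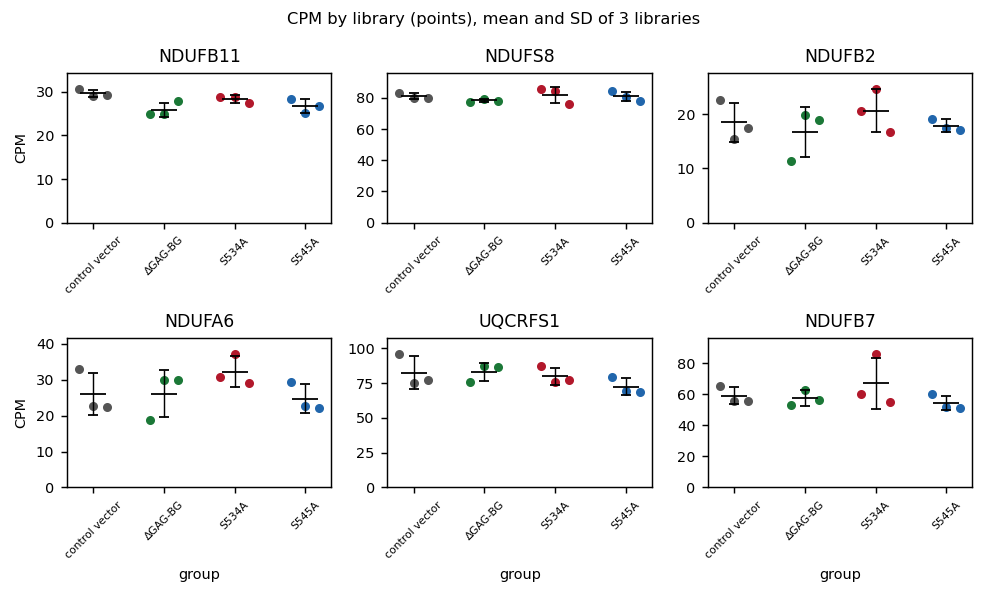
CPM of 6 subunit genes in each of 3 libraries (points, libraries 1 to 3 from left to right) of 4 groups, with the mean and SD as black marks and axes from 0. NDUFB11 is above 29 CPM in the 3 control vector libraries and at 24.9 to 28.9 in the others, NDUFS8 is nearly level, and the spread within ∆GAG-BG (NDUFB2, NDUFA6) or S534A (NDUFB7) is wider than that of the group means.

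For ∆GAG-BG against the control vector, 46 of the 60 subunit genes were lower and 14 higher, where 51.2% of all genes were higher, and the median log2 fold change was -0.05, against 0.00 over all genes. By group, 10 of 11 complex IV genes, 4 of 4 complex II genes, 6 of 9 complex III genes, and in complex I 9 of 11 distal-arm, 7 of 9 matrix-arm accessory, 5 of 7 core and 5 of 9 proximal-arm genes were lower. The direction of the median rested on single libraries: it was 0.02 without control vector library 1 and 0.01 without ∆GAG-BG library 1. With libraries 2 and 3 of both groups left out, whose TGFBR3 went against the labels, it was -0.32. The groups of libraries did not overlap for 1 gene that was higher (UQCR11) and 2 that were lower (NDUFB11 and NDUFS8), where 2.74% and 2.13% of all genes did so. UQCR11 stood at 13.97, 14.3 and 13.9 CPM in ∆GAG-BG and at 12.8, 12.8 and 13.6 in control vector.

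In S534A against control vector, 48 of 60 subunit genes were higher, where 51.5% of all genes were, and the median log2 fold change was 0.07. A total of 0 had an unadjusted p under 0.05, against 3.45% of all genes. In complex I, 10 of 11 distal-arm, 8 of 9 proximal-arm, 7 of 9 matrix-arm accessory and 6 of 7 core genes were higher, as were 3 of 4 genes of complex II, 6 of 9 of complex III and 8 of 11 of complex IV. The direction turned without S534A library 2 (median -0.01) and with libraries 2 and 3 of control vector and ∆GAG-BG left out (-0.09). The 2 smallest p-values were those of NDUFA13, at a log2 fold change of 0.47 (SE 0.29, unadjusted p = 0.124), and NDUFC2, a membrane-arm subunit, at 0.27 (SE 0.17, unadjusted p = 0.126). NDUFC2 stood at 16.9, 21.6 and 12.8 CPM in S534A and at 14.6, 13.5 and 14.5 in control vector, so that S534A held both the highest and the lowest library. NDUFA5 and NDUFS7 were higher in all S534A than in all control vector libraries and NDUFB11 was lower, where 3.85% and 3.8% of all genes did not overlap in these directions.

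In S545A against control vector, 49 of 60 subunit genes were lower and 11 higher, where 50.1% of all genes were higher, and the median log2 fold change was -0.08. A total of 0 had an unadjusted p under 0.05, against 1.05% of all genes. All 11 distal-arm, 8 of 9 matrix-arm accessory, 6 of 9 proximal-arm and 4 of 7 core genes of complex I were lower, as were 3 of 4 genes of complex II, 8 of 9 of complex III and 9 of 11 of complex IV. Without control vector library 1 the median was 0.01, and with libraries 2 and 3 of control vector and ∆GAG-BG left out it was -0.22. Same-numbered libraries of these 2 groups deviated together, and within the pairs the median log2 difference was -0.06, -0.09 and -0.07, with 42, 43 and 49 of the 60 genes lower. A total of 31 genes were lower in all 3 pairs, where 20.5% of all genes were, and 4 were higher in all 3, where 18.8% were. The labels do not pair these libraries, and the numbers were taken as pairs on the data alone. Pairs 2 and 3 are made of libraries that were close to each other, so the 3 pairs are not 3 separate observations. UQCRFS1, the Rieske iron-sulfur protein of complex III, stood at 79.5, 69.4 and 68.4 CPM in S545A and at 95.8, 74.8 and 77.1 in control vector, lower in each pair, with a log2 fold change of -0.19 (SE 0.11, unadjusted p = 0.116). UQCRB and NDUFC2 were higher and NDUFB11 was lower with no overlap, where 4.73% and 4.09% of all genes did so.

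In S534A against ∆GAG-BG, 53 of 60 subunit genes were higher (49.5% of all genes were), all 11 complex IV genes among them, and the median log2 fold change was 0.12. It was 0.07 without ∆GAG-BG library 1, 0.04 without S534A library 2, 0.18 without S534A library 3, and 0.24 with libraries 2 and 3 of control vector and ∆GAG-BG left out. A total of 0 had an unadjusted p under 0.05, against 2.99% of all genes. NDUFA8, an accessory subunit with twin cysteine motifs, stood at 46.9, 63.1 and 40.4 CPM in S534A and at 38.8, 43.9 and 44.0 in ∆GAG-BG, with a log2 fold change of 0.25 (SE 0.15, unadjusted p = 0.123). NDUFS5 had 0.26 (SE 0.16, unadjusted p = 0.132). The libraries of the 2 groups overlapped for each of the 60 genes, where 2.68% of all genes were higher and 2.97% lower without overlap. Without S534A library 3, 7 genes had an unadjusted p under 0.05 and all were higher, but so had 10.8% of all genes.

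In S545A against ∆GAG-BG, 26 subunit genes were higher and 34 lower (47.4% of all genes were higher), with a median of -0.01. The median lay above 0 without ∆GAG-BG library 2 (0.03) or 3 (0.0063), without S545A library 2 (0.03) or 3 (0.02), and with libraries 2 and 3 of control vector and ∆GAG-BG left out (0.11). A total of 0 had an unadjusted p under 0.05, against 1.1% of all genes. UQCRFS1 stood at 75.6, 86.96 and 86.4 CPM in the ∆GAG-BG libraries, above 2 of the 3 S545A libraries, and its log2 fold change was -0.20 (SE 0.11, unadjusted p = 0.106). That of UQCR11 was -0.14 (SE 0.12, unadjusted p = 0.255). SDHC was higher and NDUFA11 lower with no overlap between the libraries, where 2.62% and 2.43% of all genes did so.

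S545A against S534A, the 2 single-site mutants, gave the most one-sided split. In it, 57 of the 60 subunit genes were lower in S545A. The median log2 fold change was -0.12 against 0.00 over all genes, of which 50% were above 0. Since subunit genes deviated together in most libraries, the 60 genes are not 60 separate observations. All genes of complex II, of complex IV and of the 3 accessory groups of complex I were lower, as were 8 of 9 complex III and 5 of 7 core genes. The median was -0.05 without S534A library 2, -0.20 without S534A library 3 and -0.19 without S545A library 1. A total of 0 had an unadjusted p under 0.05, against 4.78% of all genes. NDUFB7, a distal-arm subunit, stood at 60.01, 52.1 and 51.3 CPM in S545A and at 60.4, 86.0 and 55.4 in the S534A libraries, at a log2 fold change of -0.31 (SE 0.15, unadjusted p = 0.0632). NDUFA11, which holds membrane-arm subunits together, stood at 10.4, 10.1 and 10.6 CPM and at 11.5, 15.8 and 10.5, with -0.29 (SE 0.14, unadjusted p = 0.0652). In both genes S534A library 2 was the highest and S534A library 3 was near S545A. The libraries did not overlap for SDHD alone, which was lower, where 4.8% of all genes were lower and 5.31% higher without overlap. Without S534A library 3, 9 genes had an unadjusted p under 0.05, against 15.8% of all genes, and without S545A library 1, 8 did, against 12%.

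**Figure D5:**
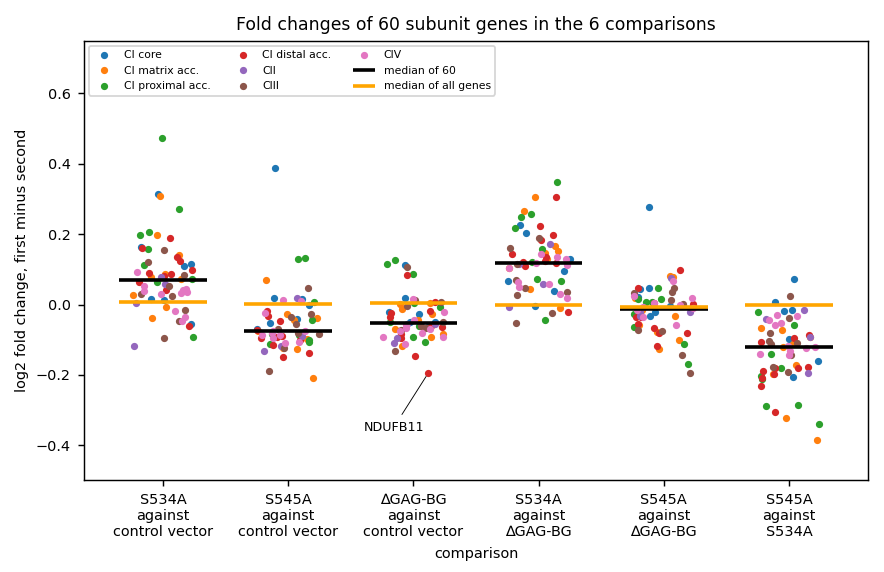
Log2 fold change (first group minus second) of 60 subunit genes in 6 comparisons, coloured by complex, with the median of the 60 in black and that of all 16069 genes in orange. The subunit median is 0.12 in S534A against ∆GAG-BG and -0.12 in S545A against S534A, and the fold changes of all comparisons lie between -0.38 and 0.47. The comparisons share groups of libraries and are not independent.

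Genes that work with the subunits gave few calls. In 17 complex I assembly factors, 18 ATP synthase genes, the 2 genes of cytochromes c and c1, and 8 genes of isoform switches and supercomplexes, 0 had an unadjusted p under 0.05 in any comparison. Of 31 assembly factors of complexes II to IV, PET100 was at a log2 fold change of 0.60 in S534A against control vector (SE 0.23, unadjusted p = 0.0253, edgeR adjusted p = 0.871), from 25 to 90 counts per library, and without S534A library 2 it was at 0.30 (unadjusted p = 0.17). Of 13 regulators, PPARGC1A, the gene of the coactivator PGC-1α that raises mitochondrial gene expression in many tissues, stood at 1.14, 1.18 and 1.21 CPM in the control vector libraries, 1.18, 1.02 and 0.948 in ∆GAG-BG, 0.711, 0.501 and 0.485 in S534A, and 1.28, 1.08 and 1.09 in S545A. All 3 S534A libraries were below the other 9. The log2 fold change of PPARGC1A was -1.03 in S534A against control vector (SE 0.22, unadjusted p = 0.000608, edgeR adjusted p = 0.871), -0.87 against ∆GAG-BG (SE 0.23, unadjusted p = 0.00261, adjusted p = 0.89), and 1.00 in S545A against S534A (SE 0.23, unadjusted p = 0.000791, adjusted p = 0.702). None passed the adjustment, and the gene had 8 to 33 counts per library. The regulators whose motifs were searched stood at 14.6 to 18.02 CPM for NRF1, 37.4 to 46.8 for GABPA and 166 to 182 for YY1, with 0 unadjusted p under 0.05. Of 10 endoplasmic reticulum stress genes, 5 were lower in S534A than in ∆GAG-BG at an unadjusted p under 0.05. Of all genes, 2.99% were under it in either direction. HSPA5 was among the 5 (log2 fold change -2.03, SE 0.91, unadjusted p = 0.0467, edgeR adjusted p = 0.89). HSPA5 stood at 11864, 1256 and 1228 CPM in ∆GAG-BG and at 1250, 287 and 1985 in S534A, so the groups overlapped.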

How the data were processed

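RNA-seq was made from 12 HEYA8 libraries in 4 groups of 3. The deposited values are raw counts for each gene, which the authors obtained with featureCounts after FastQC and trimming with Trim Galore 0.4.5. The submitters' processing notes also name STAR 2.4, SAMtools 1.2 and the mouse builds mm10 and GRCm38, but the table holds human genes: of 36113 of its symbols found in GENCODE release 29 (GRCh38), 33647 have the same span, as do 76 of the 78 members. The use of strand and the annotation release are not given in the sources used here.

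Genes with few counts were removed with filterByExpr (minimum count 10). The rest were normalized with TMM factors, and a robust quasi-likelihood model of the 4 groups (edgeR 4.0.16, R 4.3.3) was fitted to all 12 libraries, leaving 8 residual degrees of freedom. P-values were adjusted by Benjamini-Hochberg over 16069 genes. The same steps were tested on simulated data. Levels are TMM-scaled CPM. Single genes were also compared by two-sided exact permutation tests. Lengths were the table's summed exon lengths or, as an alternative, the longest APPRIS principal transcript.

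The members and lists were chosen with earlier results of these data known. Named were genes under an unadjusted p of 0.05, a fixed set of core subunits, isoform pairs, and the 3 highest and lowest genes by level per kilobase and by range. A gene that this rule names is not reported here. Genes with the smallest p-values of a comparison, and those whose groups do not overlap, were chosen after their values were seen. Alternatives were each library left out, the replicate number as a block, no filter on counts, RLE factors or library size in place of TMM, DESeq2 1.42.0, and limma 3.58.1 on quantile-normalized log2(CPM + 1). The labels give the replicate numbers no shared batch. Libraries of S545A and the control vector with the same number deviated together (correlations of 0.688, 0.411 and 0.408), so these numbers were taken as pairs on the data alone.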

Additional observations from a re-analysis of the deposited data

How the results depend on the processing

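No subunit gene passed an adjusted p of 0.05 under any setting run. DESeq2, RLE factors, library size only and limma kept the count of subunit genes under an unadjusted p of 0.05 at the reported value, except that DESeq2 gave 1 in S534A against control vector (NDUFA7, which had failed the filter). Without the filter, S534A and S545A against control vector and S545A against S534A each gave 1 (NDUFA7 against the control vector and NDUFB7 between the mutants), and in ∆GAG-BG against control vector NDUFA7 took the place of NDUFB11, which was at -0.21 (unadjusted p = 0.0961). The replicate block changed no count: in ∆GAG-BG against control vector NDUFB11 was at -0.1957 with it (unadjusted p = 0.0426). In each of the other comparisons at least 1 same-numbered pair had a correlation of deviations under 0 (lowest -0.282 to -0.00734), although replicate 3 reached 0.414 in S534A with control vector and 0.49 in S545A with S534A, so there the numbers were not taken as pairs. Leaving out 1 library at a time gave 0 to 3 genes in S534A against control vector, 0 to 7 in S534A against ∆GAG-BG and 0 to 9 in S545A against S534A, highest without S534A library 3, where 11.7%, 10.8% and 15.8% of all genes were under the threshold. It gave 0 to 1 in S545A against control vector (0.927% and 1.15% of all genes where it was 1) and 0 to 2 in ∆GAG-BG against control vector (0.856% to 1.13% where it was 2), and S545A with ∆GAG-BG stayed at 0. A further 2 alternatives were chosen after seeing the data. With libraries 2 and 3 of 3 groups summed, S534A against control vector gave 1 gene, NDUFA7, and ∆GAG-BG against control vector gave NDUFA7 in place of NDUFB11. With libraries 2 and 3 of control vector and ∆GAG-BG left out, so that 1 library is left in each and is assumed to vary like the other groups, S534A against control vector gave 1 gene and a median of -0.0852, which turns its direction. S545A against control vector gave 2 and -0.2185, ∆GAG-BG against control vector 10 (all lower) and -0.3167, S534A against ∆GAG-BG 8 (all higher) and 0.2447, S545A against ∆GAG-BG 3 and 0.1125, which also turns, and S545A against S534A 1. Under that setting the share of all genes under the threshold was, in the same order, 1.89%, 3.49%, 9.07%, 11.1%, 5.36% and 3.91%. The cause was not tested.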
